A study of Arabidopsis thaliana with 8 samples.

Results

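The tiles of plates TA01 to TA20 are the first 20 plates of the TA set on a tiling array of Arabidopsis thaliana chromosome 4. They were chosen by name alone, as TA, plate number 01 to 20, row A to H and column 01 to 12, with a value in all 4 replicates. The range of plates was drawn with their levels in view and ends just before the low stretch of TA21 to TA30. It holds 1866 of the 21285 measured tiles that are named by plate and well. Of the 1920 wells, 46 more were listed but blank and 8 were not listed.

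The study immunoprecipitated chromatin of 10-day-old seedlings for H3K4me2, the form of histone H3 that carries a pair of methyl groups on lysine 4. The plants were of the accession Col-0, the line from which the reference genome was made, and were grown in liquid medium with no treatment. There is 1 group of 4 replicates, each hybridised as a dye swap of immunoprecipitated (IP) DNA and input DNA on 2 arrays, and no second genotype or treatment enters. Whole seedlings were used, so that each value is an average over all their cell types. The labels give the IP chromatin of replicates 2, 3 and 4 the same seedling batch, while each replicate has an input batch of its own, so the replicates are not shown to be separate.

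H3K4me2 is placed by SET domain methyltransferases of the Trithorax type and taken off by lysine demethylases. In Arabidopsis it lies over genes, both active and quiet ones, and is scarce over the transposon-rich heterochromatin near centromeres and in knobs. A chromosome measured tile by tile therefore tends to show stretches of high and of low signal. The tile names give no gene and no position, and coordinates and sequences of the tiles were not analysed here.

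Each value is a log ratio between the channels, read as log2, with each replicate centred on the median of all tiles. No source used here says which of IP and input is the numerator. Above and below therefore refer to the deposited sign, relative to the median tile, and a value of 1 is a 2-fold difference. A tile was called above or below when its ratio differed from 0 in a limma fit over all 21285 tiles (n = 4, two-sided, Benjamini-Hochberg adjusted p under 0.05). Counted along the plate rows from A01 to H12, neighbouring wells tend to hold similar values, and the wells are described in that order.

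The first plates as a whole lay close to the median tile, with a wide spread. Their median was 0.10, 0.18, 0.16 and 0.18 in replicates 1 to 4. The SD over tiles was 1.32, 1.43, 1.40 and 1.45, and the distribution had a long low tail, with a skewness of -0.86 ± 0.03 (SD, n = 4). Of the 1866 tiles, 840 (45%) were above the median tile, where 42.1% of all tiles on the array were. Another 683 (36.6%) were below, where 41.9% of all tiles were. The remaining 343 passed in neither direction. These shares are descriptions, since the plates were chosen with their level known.

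Agreement between replicates was closest for replicates 1 and 3 and for 2 and 4, with correlations across these tiles of 0.984 and 0.991. The other 4 pairs had 0.938 to 0.948. The SD of a tile over the replicates had a median of 0.23. This split follows neither the numbers shared in the array titles nor the seedling batches in the labels. It recurs below, where low tiles of different plates differ in it.

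The 20 plates did not have 1 level. The highest plate by median was TA07, at 0.71 ± 0.02 (SD, n = 4), with replicate medians of 0.71, 0.69, 0.71 and 0.73. TA15 followed at 0.70 ± 0.07. The lowest was TA08, the plate right after TA07, at -0.82 ± 0.09, with -0.73, -0.84, -0.77 and -0.94. TA01, the first plate, was low as well, at -0.48 ± 0.11. The replicates of TA07 and of TA08 do not overlap, and 61.1% of the TA07 tiles were called above, against 17.0% of the TA08 tiles.

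**Figure D1:**
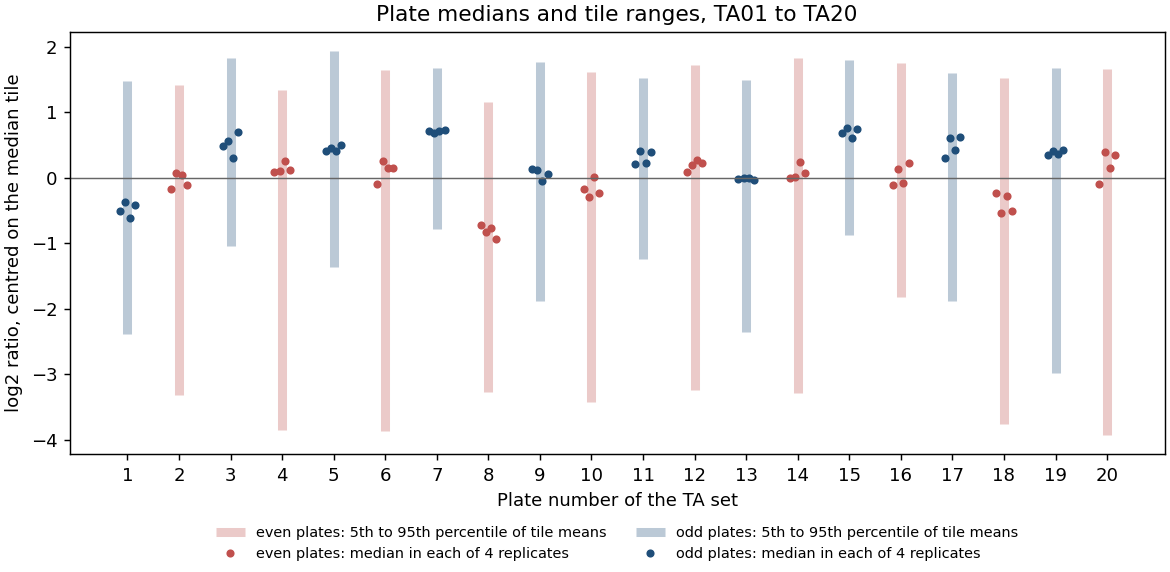
Points give the median centred log2 ratio of each plate in each of the 4 replicates, and bars the 5th to 95th percentile of the tile means, for even-numbered (red) and odd-numbered (blue) plates TA01 to TA20. The bars of even plates reach lower: their 5th percentile over all tiles was -3.58, against -1.92 on odd plates.

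Even and odd plates differed mostly at the low end. The median of the 922 tiles on even plates was -0.12, -0.06, 0.02 and -0.05 in replicates 1 to 4. The median of the 944 tiles on odd plates was 0.31, 0.39, 0.30 and 0.41. The even plates were thus lower in 4 of 4 replicates, by 0.41 ± 0.08 on average. The alternation was seen in these data before it was described, so no p is given.

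The difference was widest near the 10th percentile and small at the top. Even minus odd was -1.20 ± 0.41 at the 1st percentile, -1.56 ± 0.35 at the 5th and -1.62 ± 0.26 at the 10th. It was -0.69 ± 0.14 at the 25th and -0.24 ± 0.08 at the 75th. At the 95th percentile it was -0.07 ± 0.09 and at the 99th 0.09 ± 0.14, both with replicates of either sign. The difference at the high end was thus within the spread between replicates. There, 15 tiles on even plates and 23 on odd plates had a mean above 2. Over the array 1.97% of tiles were that high, and on the first plates 2.04%.

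Low tiles were concentrated on the even plates. Tiles with a mean below -2 numbered 150 on even plates (16.3%) and 42 on odd plates (4.45%), where the array as a whole had 12.6%. Below -3.5 there were 54 on even plates and 1 on odd plates, together 2.95% of the tiles, and 0.813% of all tiles on the array were that low. All 10 even plates held such a tile, from 11 on TA04 and 9 on TA06 to 1 on TA16. The single odd-plate tile was TA01A11.

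The limit of -3.5 does not mark a gap. The tiles just inside it were TA18E03 at -3.501 and TA06D03 at -3.51, and the tiles just outside were TA19D06 at -3.49 and TA10H04 at -3.48. When tiles were chosen on 3 replicates, 47 to 61 of them lay on even plates and 1 to 3 on odd plates. All of them were below -2, a looser limit, in the replicate that was left out. Each replicate left out has a close partner among those used, so this is no separate evidence.

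The lowest tile of the first plates was TA04A08, with -4.06, -4.37, -4.31 and -4.56 in replicates 1 to 4. Its mean of -4.32 ± 0.21 is a 20.04-fold difference from the median tile. TA20H11 had -4.10, -4.44, -4.20 and -4.56, and TA18D10 had -3.96, -4.43, -4.15 and -4.61. In each of the 3 the order of the replicates was the same, with replicate 1 the highest and replicate 4 the lowest. The other 7 of the 10 lowest tiles were TA14H12, TA14H10, TA04F03, TA20D08, TA12H09, TA02D03 and TA20H03, with means from -4.28 to -4.15. All 10 lay on even plates.

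The surroundings of these low tiles varied. Of the 55 tiles below -3.5, 21 had neighbours with a median above 0. TA20D08 had a mean of -4.24 ± 0.15, while the wells up to 2 places away had a median of 0.88. TA02D03 had -4.20 ± 0.17 beside a median of 0.58. Others lay on low ground, with neighbour medians of -3.95 at TA20H11, -3.03 at TA12H09 and -2.57 at TA20H03. Of the 55, 35 lay alone or in pairs when all tiles below -2 are counted as low. Only 13 lay in low runs of 5 or more wells, on TA12, TA18 and TA20.

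Most low tiles of the early even plates came back in the same wells. On the 5 even plates TA02 to TA10, 17 of the 96 wells, 17.7% of a plate, were below -2 on at least 3 plates. They held 59 of the 76 tiles below -2 on these plates. They also held 12 of the 16 blank tiles there. The 17 wells were A08, B12, D03, D04, D12, E08, F03, F04, F11, F12, G07, G08, H03, H04, H10, H11 and H12. They were chosen after their values were seen, and no test is attached to them.

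Well G08 shows the pattern most fully. It was below -2 on all 5 plates TA02 to TA10 and on 7 of the 10 even plates, with a median of -2.51 over even plates and 0.09 over odd plates. No odd plate was below -2 there. Well F12 had a median of -3.41 over 9 even plates and -0.05 over 10 odd plates, and well D04 had -2.84 over even plates and 0.65 over odd plates. Across all 96 wells, the count of even plates below -2 reached 7, while the count of odd plates never exceeded 2.

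**Figure D2:**
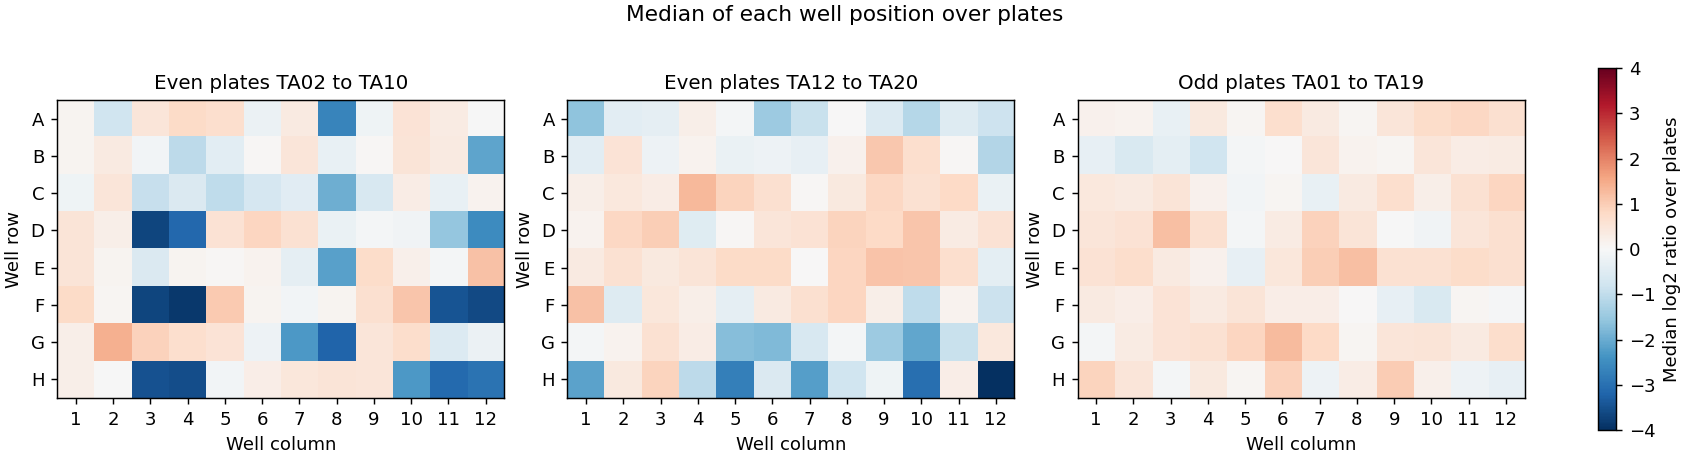
Each square is a well of the 96-well plate, coloured by the median over plates of the tile's mean centred log2 ratio, for even plates TA02 to TA10, even plates TA12 to TA20 and odd plates TA01 to TA19. On TA02 to TA10 dark squares stand in pairs such as D03 and D04, F03 and F04, and H10 to H12, on TA12 to TA20 most lie in rows G and H, and on odd plates no square is dark.

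TA04 carried the pattern in full, with 20 of its 94 measured tiles below -2. In row D these were D03 at -3.84, D04 at -3.26, D11 at -3.72 and D12 at -2.53. In row F they were F03 at -4.26, F04 at -3.86 and F12 at -3.52. Row H had a median of -1.21, and rows A to G had medians from 0.10 to 0.57. The median of TA04 was 0.14 ± 0.07, and 35 of its tiles were called below and 40 above. The odd plate before it, TA03, had 0 tiles below -2 and a lowest tile at -1.30.

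The likeness between plates was strongest among TA02 to TA10. The same-well correlation across tiles had a median of 0.49 over the 10 pairs of these even plates, with a range of 0.28 to 0.62. Over the 45 pairs of odd plates it had a median of -0.01, and over the 100 pairs of an even with an odd plate 0.00. Between TA02 and TA04, all 11 low wells of TA02 were low on TA04, and these were 64.7% of the 17 low wells of TA04 (wells measured on both plates). By count of shared wells, this was the largest overlap between successive even plates among TA02 to TA10. TA04 and TA06 shared 66.7% and 71.4% of their low wells, TA06 and TA08 42.9% of each, and TA08 and TA10 41.2% and 70%.

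The later even plates were mixed. TA12 and TA14 correlated at 0.65 by well, the highest of all even pairs, and shared 11 low wells, 61.1% of the 18 low wells of each. Many of their low wells lay in rows G and H, and some in row A. Row A had 4 of the 18 tiles below -2 on TA12, with a row median of -1.38, and 2 of 18 on TA14, with -0.68. On TA12 the median was -1.80 in row G and -3.03 in row H, with 1.18 in row D. On TA14 it was -2.31 in row G and -2.21 in row H, with 1.07 in row D. The 10 pairs among TA12 to TA20 had a median correlation of -0.06, with 4 of 10 above 0, so these plates did not share 1 pattern. TA18 had -0.50 with TA12, -0.41 with TA14 and -0.36 with TA20. The remaining successive even plates shared few low wells: 4 for TA10 and TA12, 0 for TA14 and TA16, 2 for TA16 and TA18, and 2 for TA18 and TA20.

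Over the 10 even plates together, 11 wells were below -2 on at least 5 plates. The median of these wells on even plates was -2.22, -2.65, -2.40 and -2.71 in replicates 1 to 4, a low level that the choice of wells fixes. It came mainly from the early plates: on TA02 to TA10 the median was -3.26, with 87.2% of tiles below -2, and on TA12 to TA20 -0.49, with 37.7%. On TA16 it was -0.08 and on TA18 1.12. On odd plates the same wells had 0.22, 0.14, 0.26 and 0.16. The other 85 wells had 0.04 ± 0.08 on even plates and 0.37 ± 0.07 on odd plates (SD, n = 4). Without the 11 wells the even plates were still lower, by 0.33 on average, and 89 of their 150 tiles below -2 lay in other wells.

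Wells chosen on some even plates were also read on even plates that had not entered the choice. The 5 wells below -2 on at least 3 of TA02, TA06, TA10, TA14 and TA18 had a median of -1.99 on TA04, TA08, TA12, TA16 and TA20, against 0.08 for the other wells there. In the opposite direction, 9 wells chosen on TA04, TA08, TA12, TA16 and TA20 had -2.85 on TA02, TA06, TA10, TA14 and TA18, against -0.03 for the other wells. Both of these sets mix early and late plates. From early to late plates the likeness was weaker: the 7 wells below -2 on 4 or 5 of TA02 to TA10 had a median of -0.49 on TA12 to TA20, with 30.3% of tiles below -2, against 15.1% in the other wells. On even plates TA64 to TA99 the 11 wells had a median of 0.08, with 2.59% of 193 tiles below -2, and the other 85 wells had -0.03. What the well position contributed to these levels was not tested.

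Low tiles of even and odd plates also differed in how the replicates fell. Among the 150 tiles below -2 on even plates, 136 were higher in replicates 1 and 3 than in 2 and 4, by a median of 0.36. The even plates leaned this way as a whole, with 542 of all 922 tiles higher and a median of 0.17. Of the 255 even-plate tiles called below but at or above -2, 186 were higher, and the median difference was 0.24. On odd plates 424 of all 944 tiles were higher, with a median difference of -0.06. Among the 42 odd-plate tiles below -2, 15 were, and the median difference was -0.32. The odd plates were not alike in this. On TA01 1 of 8 such tiles was higher in replicates 1 and 3, on TA09 0 of 5 and on TA19 2 of 13, while on TA13 6 of 9 and on TA17 2 of 3 were, and on TA05 and TA15 2 of 2 each. Even plate TA16 had 0 of 3. Odd-plate tiles that stood alone or in pairs had a median difference of 0.02, and those in runs of 3 or more -0.72. The spread differed too: the middle 50% of the even-plate tiles below -2 lay between 0.29 and 0.43, and of the odd-plate ones between -0.86 and 0.15. Low tiles of even plates thus formed a narrow band.

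The sign of this difference depends on the scaling. With the values as deposited the medians were -0.12 on even and -0.80 on odd plates, and after quantile normalization 0.77 and 0.15. Even minus odd was 0.69 with median centring, which a shift of whole replicates cannot alter, and 0.63 after quantile normalization. The split of replicates was seen in the data, so this is a description.

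**Figure D3:**
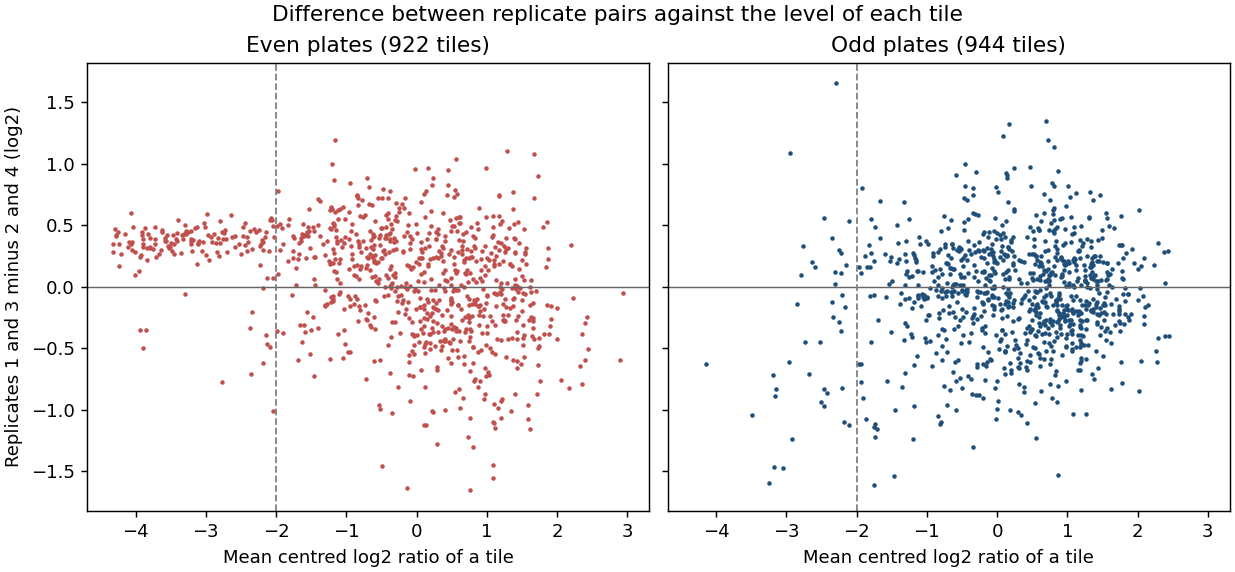
Each point is a tile, with its mean centred log2 ratio on the horizontal axis and the mean of replicates 1 and 3 minus that of 2 and 4 on the vertical axis, for even plates (left) and odd plates (right). Left of the dashed line at -2, 133 of 150 even-plate tiles lie between 0.1 and 0.6, against 11 of 42 odd-plate tiles.

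With median centring, the low blocks that follow had the sign of TA01, TA09 and TA19, and so did TA64 to TA99, which have no low block. Tiles below -2 on TA21 to TA30 had a median difference of -0.39 over 430 tiles, and 27.2% of them were higher in replicates 1 and 3. On TA37 to TA51 it was -0.69 over 768 tiles, with 8.33% higher. On TA64 to TA99 it was -0.14 over 161 tiles, with 36.6% higher. On even plates TA01 to TA20 the share was 90.7%. After quantile normalization the median difference was 0.10 on TA21 to TA30, -0.17 on TA37 to TA51 and 0.33 on TA64 to TA99. As deposited it was negative in all of these sets, the even plates included.

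**Figure D4:**
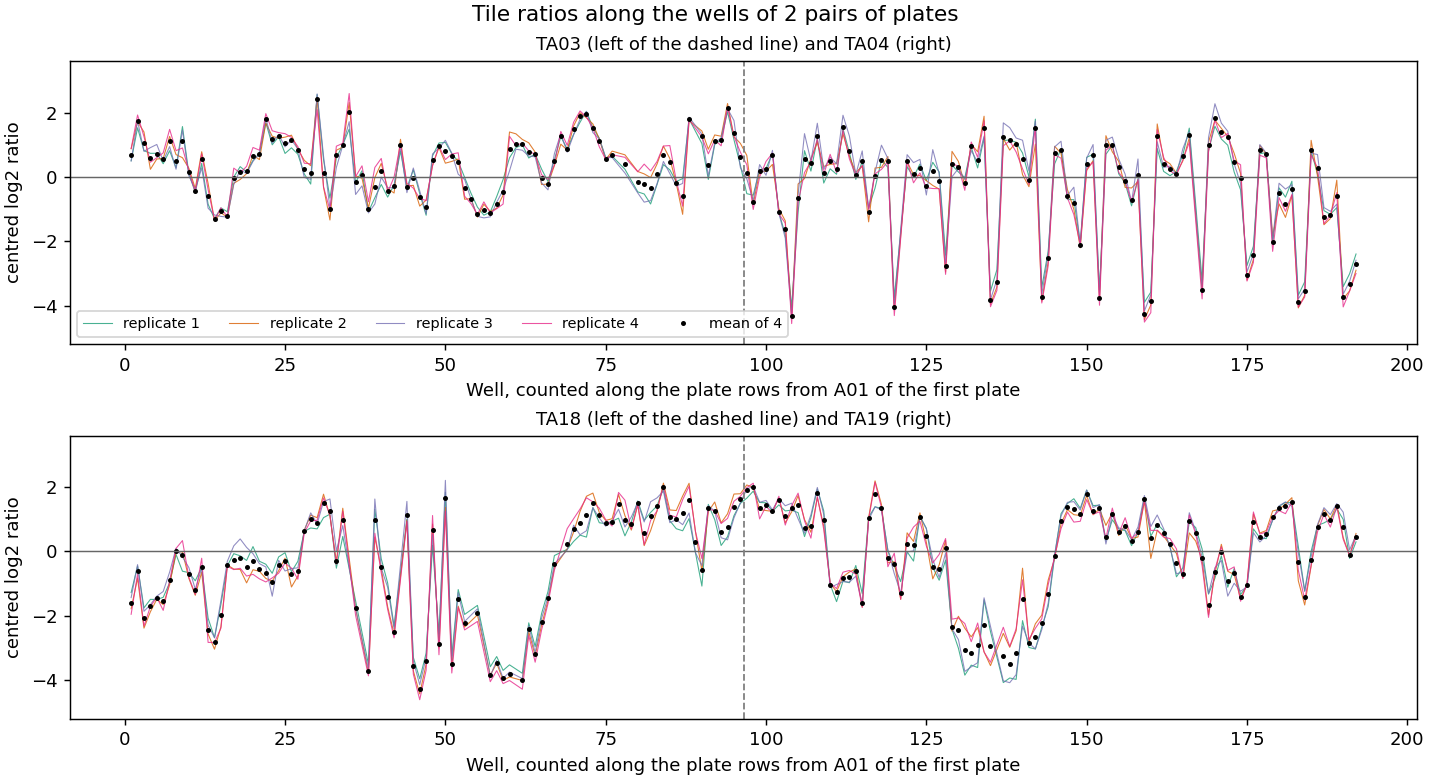
Lines give the centred log2 ratio of each replicate and dots the mean of 4, by well along the plate rows, for TA03 and TA04 (top) and TA18 and TA19 (bottom). TA04 shows single wells and pairs near -4 between tiles near 0, while TA19 shows a broad low stretch in which the replicates spread apart.

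High and low tiles also formed domains along the rows, and some low domains include the recurring wells. A domain is taken here as at least 5 consecutive measured wells all called on the same side, passing from a plate to the next and skipping blank wells. There were 53 high domains with 439 tiles, 52.3% of the tiles called above, and 45 low domains with 376 tiles, 55.1% of those called below. High domains took up 23.5% of all tiles here, 22.4% on TA64 to TA99 and 38.2% on the TB plates. Low domains took up 20.2%, 20.9% and 10.7%. The longest high domain had 22 wells here and 25 on TA64 to TA99, and the longest low domain 18 and 23. High domains started on even plates in 19 cases and on odd plates in 34. Low domains started on even plates in 27 cases and on odd plates in 18. All plates but 1 held tiles of a high domain, and all 20 held tiles of a low one.

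The longest high domain ran over 22 wells, from TA07F09 to TA07H06. Its mean was 1.16, 1.39, 1.28 and 1.42 in replicates 1 to 4, and its tiles lay between 0.48 and 1.74. TA07 held another of the 5 longest, TA07D08 to TA07E12 with 17 wells and 1.04 ± 0.13. The remaining high domain on that plate, TA07C11 to TA07D04, had 6 wells at 1.24.

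The end of TA18 and the start of TA19 formed a second high region. The domain from TA18F10 to TA18H04 had 19 wells at 1.15 ± 0.16. The domain from TA18H07 to TA19B01 had 19 wells at 1.30 ± 0.05 and was the only high domain of the 53 that passed from a plate to the next. TA19E02 to TA19F03 followed on TA19 with 14 wells at 1.06 ± 0.07. Between TA19B01 and TA19E02 lay the low domains TA19B02 to TA19B07, with 6 wells at -1.02, and TA19C09 to TA19D12, described below.

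The highest tiles differed in their surroundings. TA12B03 had 2.92, 3.004, 2.91 and 2.94 in replicates 1 to 4, a mean 7.70-fold from the median tile, and its neighbour TA12B02 had 2.50, 3.06, 2.69 and 3.32. The wells up to 2 places from TA12B03 had a median of 0.45. TA10D01, at 2.43 ± 0.25, stood beside wells with a median of -0.11. TA16E03 at 2.45 ± 0.32 and TA05G04 at 2.39 ± 0.23 lay within higher ground, with 1.39 around each.

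The other 5 of the 10 highest were TA15A07, TA03C06, TA14F09, TA14B12 and TA07D12, with means from 2.44 to 2.39. Of the 10, 6 were on even plates and 4 on odd plates. The largest adjusted p of the 10 highest and 10 lowest tiles in limma was 1.56e-05, at TA14B12.

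The low domains were of unlike make. The longest had 18 wells each: TA08F06 to TA08G11 at -1.91 ± 0.11, and TA16F01 to TA16G07 at -1.41 ± 0.05. In TA16F01 to TA16G07 the tiles lay between -2.18 and -0.64, with no single deep well. In TA08F06 to TA08G11 they lay between -4.04 and -0.54, and the deepest, TA08F08, lay between 2 wells above -2.

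TA19C09 to TA19D12 was the broad low stretch of the odd plates, with 15 wells. Its mean was -2.98, -2.33, -2.92 and -2.32 in replicates 1 to 4, lower in replicates 1 and 3. All its tiles were between -3.49 and -1.31. TA01A08 to TA01B11 had 16 wells with -2.38, -1.62, -2.41 and -1.71, again lower in replicates 1 and 3, and it held TA01A11.

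On the even plate just before TA19 the order was the reverse. TA18E03 to TA18F07 had 14 wells with -2.46, -2.78, -2.64 and -2.93, higher in replicates 1 and 3 by 0.31. The replicates of TA18E03 to TA18F07 and of TA19C09 to TA19D12 overlap in level, and the pairs stand apart in opposite directions. Of the 27 low domains that start on even plates, 23 were higher in replicates 1 and 3, against 6 of the 18 that start on odd plates. The 4 exceptions on even plates include TA12A06 to TA12A12, at -0.49, and TA08H10 to TA09A10, at -0.30, most of which lies on TA09.

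Domains chosen on 3 replicates held in the replicate left out. All 53 to 56 high domains so chosen had a mean above 0 in the remaining replicate, with medians of 1.01 to 1.18. All 38 to 43 low domains had a mean below 0, with medians of -1.61 to -1.43. The replicates are not independent, and this is no separate evidence for a domain.

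The last plate ended low, next to the low block. On TA20 the row medians were 0.39 ± 0.22 in row E, 0.38 ± 0.33 in row F, -0.81 ± 0.49 in row G and -3.64 ± 0.17 in row H (SD, n = 4). The first row of TA21, which lies outside the range, had -3.93 ± 0.20, with -3.69, -4.04, -3.85 and -4.14 in the replicates. Its replicates were higher in 1 and 3, as on the even plates. By row C of TA21 the values were -2.42, -2.23, -2.33 and -2.10, lower in 1 and 3. The replicates of row H of TA20 and row A of TA21 overlap in level, so low wells stood on both sides of the plate border. Row H was low on some other even plates, with medians of -3.03 on TA12, -2.21 on TA14 and -1.21 on TA04. On TA16 and TA18, the even plates nearest before TA20, it was 0.85 and 1.13. Whether row H of TA20 belongs with TA21 or with the low rows H of other even plates was not tested.

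Neighbouring tiles were alike along the rows and little alike down the columns. The correlation across tiles 1 well apart along the rows was 0.57 over 1813 pairs, and down the columns 0.12. Within even plates it was 0.48, and within odd plates 0.69. At 3 wells it was 0.18 on even plates and 0.33 on odd plates. Leaving out the 11 wells that recurred gave 0.47 on even and 0.70 on odd plates. Those wells held 61 of the even-plate tiles below -2, and 89 such tiles stayed in. What lowered the likeness on even plates was not tested.

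**Figure D5:**
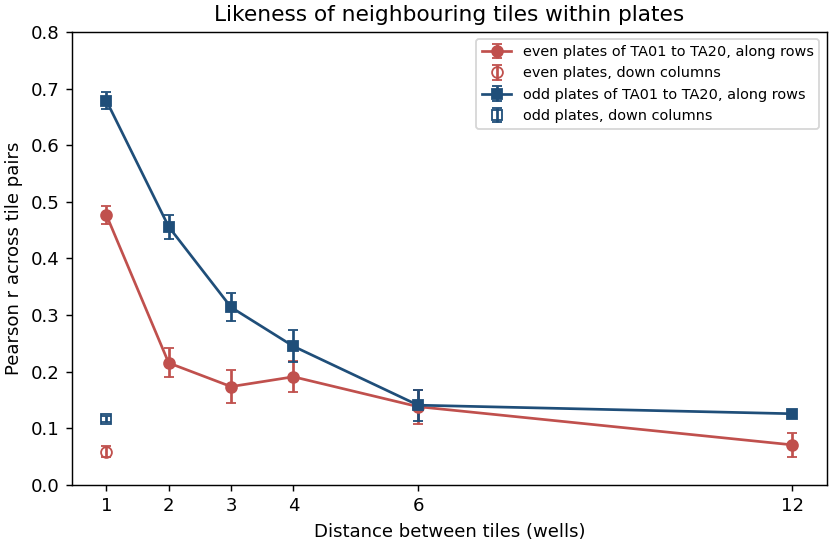
Pearson correlation across pairs of tiles on the same plate against their distance in wells, for even (red) and odd (blue) plates, with filled symbols along rows and open symbols down columns (mean ± SD over 4 replicates). At 1 well the even plates had 0.477 ± 0.016 and the odd plates 0.679 ± 0.015.

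At the distance of whole plates the pooled tiles were more alike on plates of the same parity, but not in all groups of plates. The median over pairs was 0.49 among even plates TA02 to TA10, -0.06 among even plates TA12 to TA20 and -0.01 among odd plates. Tiles in the same well of successive plates, 96 wells apart, had a correlation of -0.06. Tiles in the same well on the next plate of the same parity had 0.18. For single pairs of successive plates of the same parity it ranged from -0.36 (TA18 with TA20) to 0.65 (TA12 with TA14) on even plates. On odd plates it ranged from -0.16 (TA03 with TA05) to 0.18 (TA11 with TA13).

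Set against plates with no low block, the first plates had a wider spread. Their median was 0.16 ± 0.04, against 0.01 ± 0.01 on TA64 to TA99 and 0.48 ± 0.02 on the TB plates. The SD over tiles was 1.40 ± 0.06 on TA01 to TA20, against 1.19 ± 0.04 on TA64 to TA99 and 1.01 ± 0.03 on the TB plates. The difference was 0.22 ± 0.03 from TA64 to TA99 and 0.39 ± 0.04 from TB, positive in 4 of 4 replicates each. The even plates alone had an SD of 1.57 ± 0.11 and the odd plates 1.14 ± 0.03.

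The likeness of neighbours was slightly lower on the first plates as a whole, with the even plates (0.477) below and the odd plates (0.679) above those of the other sets. The correlation at 1 well was 0.564 ± 0.002 on TA01 to TA20, 0.616 ± 0.015 on TA64 to TA99 and 0.599 ± 0.014 on TB, lower on TA01 to TA20 in 4 of 4 replicates in both comparisons. The share of tiles below -2 was 10.3% on TA01 to TA20, 4.84% on TA64 to TA99 and 1.36% on TB. The plates were chosen with their levels known, so the medians, SDs and shares of low tiles are descriptions. For the neighbour correlation, the exact two-sided sign-flip permutation test over the 4 replicates gave p = 0.125 against both sets, also after Benjamini-Hochberg adjustment over 6 differences computed. That is the smallest p 4 replicates allow, so the test cannot reach 0.05.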

How the data were processed

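The deposited values are log ratios per tile, taken as log2 because their size fits that base, which the sources used here do not state. Per the labels, DNA was amplified and labelled directly with Cy3 and Cy5; for scanner, background correction and normalization the sources used here name nothing. The 2 arrays of a dye swap held identical values in all 21800 rows, so 1 value per replicate was used (n = 4). Each replicate was centred on the median of the 21285 tiles named by plate and well, with no loess or quantile step. Tiles were tested with limma 3.58.1 in R 4.3.3 (lmFit, eBayes) over all tiles and checked on simulated data. The simulated replicates were independent, so this check does not cover the likeness within the pairs 1,3 and 2,4 (correlation 0.70). Other steps used Python 3.11.15 with pandas 2.3.3, numpy 2.4.6, scipy 1.17.1 and matplotlib 3.10.9. Since nothing shows separate cultures, p-values cover the spread of these 4 replicates only, possibly a technical one, and the number of arrays limits the precision. Named tiles are the 10 highest and 10 lowest past the threshold with 1 sign in every replicate, odd-plate tiles below -3.5 and those nearest that limit, with the 5 longest domains of each side and the extreme plates; tiles, rows, wells and domains named beyond that were chosen after their values were seen. The members, limits and lists were chosen with earlier results of these data known. Alternatives in centring, normalization, replicate blocks, limits and left-out replicates are in the closing section.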

Additional observations from a re-analysis of the deposited data

Results flagged for a closer look

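Each of 64 values was searched for a replicate that stands apart from the other 3 (Dixon's test for 4 values). Chance alone flags about 1 in 20, and 4 were flagged. Tile TA10D01 had a gap of 0.971 of its range, with 2.06 in replicate 1 and 2.55 to 2.56 in the others. Tile TA14F09 had 0.909, with 1.98 in replicate 1 and 2.52 to 2.58 in the others. The median of plate TA04 had 0.860, with 0.25 in replicate 3 and 0.09 to 0.11 in the others. The even minus odd difference of the plate medians had 0.864, with -0.28 in replicate 3 and -0.46 to -0.43 in the others. Without replicate 3 that difference is -0.45.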

How the results depend on the processing

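The counts rest on the centring and on the size asked for. In place of 840, tiles above the median tile numbered 367 as deposited, 332 centred on the mode, 497 at 1.5-fold or more and 475 on odd plates alone, and in place of 683, tiles below numbered 1134 on the mode, 440 at 1.5-fold and 278 on odd plates. Of the calls, 29.1% were above as deposited and 22.65% on the mode, in place of 55.2%. Without 1 replicate the counts were 801 to 833 above and 645 to 660 below. Taking the pairs 1,3 and 2,4 for random blocks gave 775 and 616. The median of the first plates was -0.44 as deposited and -0.69 on the mode. Even minus odd was -0.31 without the lowest tiles, and -0.45 to -0.39 without 1 replicate. The 54 lowest tiles on even plates became 93 as deposited, 107 on the mode, 87 below -3 and 19 below -4. The 1 on odd plates became 11, 16, 8 and 1 there, 2 after quantile normalization and 1 to 3 without 1 replicate (2 without replicate 2, 3 without 4). High domains numbered 113 at 3 wells or more, 24 at 8 or more, 32 down the columns, 10 as deposited, 7 on the mode and 20 at 1.5-fold, in place of 53. Low domains numbered 82, 20 and 19 in the first 3 of these, 75 on the mode and 24 at 1.5-fold, in place of 45. The neighbour correlation of 0.57 was 0.33, 0.26, 0.10 and -0.057 at 2, 3, 12 and 96 wells, 0.12, 0.13 and -0.053 at 1, 2 and 3 wells down the columns, 0.48 on even plates, 0.69 on odd plates and 0.60 without the lowest tiles. The cause of these moves was not tested. They came with changes in centring, scaling, limit, size asked for, run length, well order, distance, replicates or tiles taken. The 25 named tiles kept their sign and their call in each of 300 alternatives (largest limma adjusted p 0.000433). They were named for extreme values, far larger than the shifts tried, so little else could result. It says nothing about weaker tiles. Counts on odd plates alone, without the 11 recurring wells, and domains after quantile normalization or centring on the first plates were added after seeing the data. No paired analysis was possible because all 4 replicates belong to 1 group. How far the signal lay over background is not known.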
